A study of Mus musculus with 4 samples.

Results

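The largest CD8 clonotype of the WT tumors paired an alpha chain from TRAV10N with a beta chain from TRBV12-2 and held 1034 cells. Its members were chosen by receptor sequence among cells that met an expression rule for CD8 cells. For each cell barcode of the WT library, the alpha and the beta contig with the most UMIs (unique molecular identifiers, counted once per captured RNA molecule) were taken, and a clonotype was defined by both V genes and both junction nucleotide sequences. Cells counted as CD8 cells when they held at least 1 UMI of Cd8a or Cd8b1 and no UMI of Cd4, and the most frequent clonotype among them was kept. The 1034 members were 24.9% of the 4159 WT CD8 cells with a clonotype (95% exact binomial interval 23.6 to 26.2), 10.1% of the 10224 WT cells that passed the filters, and part of 20170 such cells in the whole series. Because frequency chose the clonotype, its size is a description.

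The tumors were B16 melanomas, a transplantable mouse skin tumor line, in mice given a peptide vaccine and then an antibody against CTLA-4, and they were taken in the third week after treatment. The genotypes are those of the labels. WT cells came from Vsir fl/fl littermates without Cre, and VISTA-KO cells from Vsir fl/fl CD4-Cre mice. In the latter, Cre under the Cd4 promoter, which is active in the thymus, is meant to delete Vsir in T cells. Both groups therefore carried the floxed Vsir alleles, and both received the vaccine and the antibody. Tumors of several mice were pooled per genotype, tumor-infiltrating T cells were sorted, and each pool gave 1 gene expression library and 1 receptor library. The sources differ on the sort, which is described both as of CD4 and CD8 T cells and as of CD8+ cells alone, with an anti-CD8 antibody as the stain in the labels, and the tables held cells with Cd4 UMIs and cells with Cd8a UMIs. The WT expression library held 72098984 UMIs in 10337 barcodes and the VISTA-KO library 59916814 UMIs in 10085 barcodes. With 1 pool per genotype there was no replicate, so no p-value was computed, and every interval covers counting error only. The clone and the mouse it came from cannot be told apart.

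A T cell receptor alpha gene is joined from a V and a J segment and a beta gene from V, D and J segments, with bases trimmed and added at the joins. The junction that results holds the third complementarity-determining region (CDR3), the part of the receptor that meets the peptide held by an MHC molecule. Cells with the same pair of junctions are usually descendants of a single T cell, and a large clone in a tumor marks a cell that divided many times. CD8 T cells in tumors are commonly described along a course from TCF1+ stem-like cells to effector cells with granzymes and to exhausted cells with TOX and several inhibitory receptors.

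The 2 junctions of the clonotype are shown because they define it. They are written 5′ to 3′, from the codon of the conserved cysteine to that of the conserved phenylalanine. Capitals mark the bases at the join, which in the alpha chain are those assigned to both TRAV10N and TRAJ9 (bases 10 to 13) and in the beta chain those assigned to TRBD1 (bases 16 to 27), of which bases 21 to 27 were assigned to TRBJ2-7 as well.
alpha, TRAV10N with TRAJ9: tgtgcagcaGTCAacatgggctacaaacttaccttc
beta, TRBV12-2 with TRBD1 and TRBJ2-7: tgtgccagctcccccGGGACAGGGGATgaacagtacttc
The junctions of the clonotypes nearest to it in size are shown for comparison, namely the second largest in the WT library and the largest in the VISTA-KO library.
second WT alpha, TRAV14-2: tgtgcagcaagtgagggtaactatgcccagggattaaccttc
second WT beta, TRBV10: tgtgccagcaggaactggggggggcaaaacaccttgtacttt
VISTA-KO alpha, TRAV16N: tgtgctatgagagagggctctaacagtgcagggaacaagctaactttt
VISTA-KO beta, TRBV13-1: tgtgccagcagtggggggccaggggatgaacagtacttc

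The alpha junction of 36 bases encoded 12 residues and the beta junction of 39 bases encoded 13. In GRCm38, Trav10n lies on chromosome 14 (chr14:53122114-53122611) and Traj9 on the same chromosome (chr14:54209393-54209450), while Trbv12-2 lies on chromosome 6 (chr6:41118864-41119364) with Trbj2-7 (chr6:41543810-41543856). The constant regions were TRAC and TRBC2. Each member had 1 to 85 UMIs of its alpha contig, with a median of 7, and 1 to 108 UMIs of its beta contig, with a median of 14. The medians in the other WT CD8 cells were 8 and 13, so the contigs of the clonotype were about as deep as those of its neighbours. Only 18 members rested on 1 alpha UMI and only 3 on 1 beta UMI.

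The clonotype held no cell with more than 2 contigs. None of the 1034 members had an additional alpha or beta contig, which by the exact 95% interval allows a share of up to 0.356%, whereas 476 of the 3125 other WT CD8 cells (15.2%) had one. Absence of an additional chain was common among large clones. It was also seen in all 318 cells of the second largest WT clonotype and in 17 of the 22 other WT CD8 clonotypes with at least 20 cells. In the largest VISTA-KO clonotype 9 of 291 cells had one (3.09%).

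The expression library matched the receptor labels. Trav10n was at 711 CPM (UMIs of a gene per 1000000 UMIs of the same cells) in the members and 2.46 CPM in the other WT CD8 cells, and Trbv12-2 was at 2396 and 46.0 CPM. Every member held a UMI of at least one of these genes, 985 of Trav10n and 1033 of Trbv12-2. The rule used these segments, so the values check the labels and are no finding. The CD3 genes were present in nearly all members, with Cd3e UMIs in 1024 cells, Cd3d in 1012 and Cd3g in 1018, and Foxp3 was at 3.80 CPM. Foxp3 was lower there than in the other WT CD8 cells. Markers of CD4 and regulatory T cells summed to 464 CPM in those cells and 84.7 CPM in the members.

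Membership did not turn on the edge of the CD8 rule. Of 1065 WT barcodes with both junctions, 2 failed the cell filter and 29 passed it but failed the CD8 rule, 27 for a Cd4 UMI (exactly 1 such UMI in 23 of them) and 2 for lack of a Cd8a or Cd8b1 UMI. Just inside the rule, 3 members held exactly 1 Cd8a or Cd8b1 UMI and 12 held exactly 2, against a median of 15. The 2 libraries shared 145 cell barcodes, among them 15 of the members. In no shared barcode did both libraries hold the same clonotype, and no VISTA-KO barcode shared with a member carried either junction.

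The clonotype was far larger than any other CD8 clonotype in either library. The next WT clonotypes had 318 cells (7.65%), 79 cells (1.90%) and 76 cells, and of the 1148 WT CD8 clonotypes 894 (77.9%) were seen in 1 cell. The largest of the 1656 VISTA-KO CD8 clonotypes had 291 cells, 8.41% of 3459. Both were picked as the largest of their library, so the shares are given side by side with no comparison of the genotypes.

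**Figure D1:**
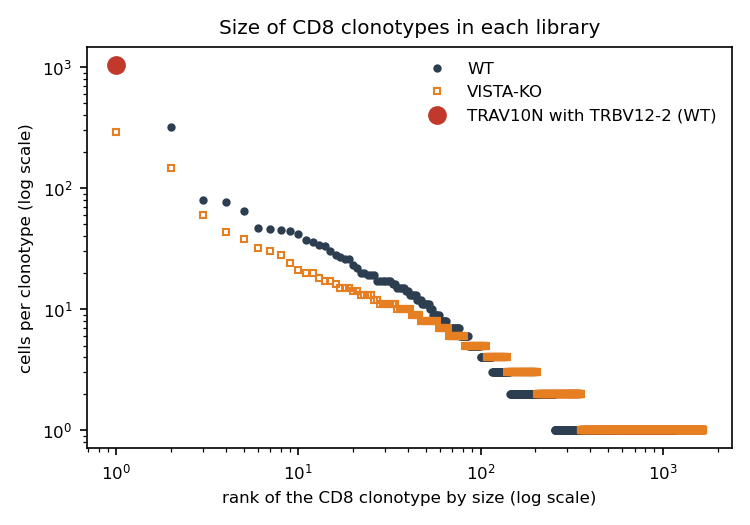
Cells per CD8 clonotype (log scale) against the rank of the clonotype by size (log scale) in the WT library (filled circles) and the VISTA-KO library (open squares). The TRAV10N with TRBV12-2 clonotype is the large circle at 1034 cells, above the second WT clonotype at 318 cells and the largest VISTA-KO clonotype at 291.

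Expression was then compared with that of the 3125 other WT CD8 cells with a clonotype. UMIs were summed over the cells of each side, 4996616 in the clonotype and 19945325 in the others, and divided to CPM. The median cell had 4665.5 UMIs and 1903 detected genes in the clonotype and 4615 UMIs and 1866 genes in the others, with mitochondrial shares of 0.824% and 0.894%. The upper end differed, with up to 16877 UMIs in a member and up to 45349 in another cell. Folds are ratios of CPM, and a gene was called higher or lower when the ratio of CPM + 5 passed 1.5-fold, among 6215 genes with at least 20 CPM on either side and with V, D and J segments left out. Of these genes 332 were higher in the clonotype (5.34%) and 515 lower (8.29%), and the median log2 ratio of all genes tested was 0.06.

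Chemokine receptors held more genes that were higher in the clonotype than lower, and inhibitory receptors, stem and memory genes and genes of dividing cells held more that were lower. By the fixed rule of the 10 highest ratios, the leading genes were Hbb-bs, Lgals3, Itgax, Ccr2, Itga1, Il1b, Spry1, Apobec2, Gpr183 and Fhl2. The 10 lowest ratios were those of Rgs16, Nrgn, Xcl1, Spp1, Tnfrsf4, Tnfrsf9, Ccr7, Ccl1, Ikzf2 and Abcb9. The counts of genes depended on which cells were used. Without cells holding at least 3 UMIs of the myeloid and dendritic list, a choice made after these values were seen, 170 genes were higher and 265 lower. When every cell weighed the same, 157 were higher and 279 lower.

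**Figure D2:**
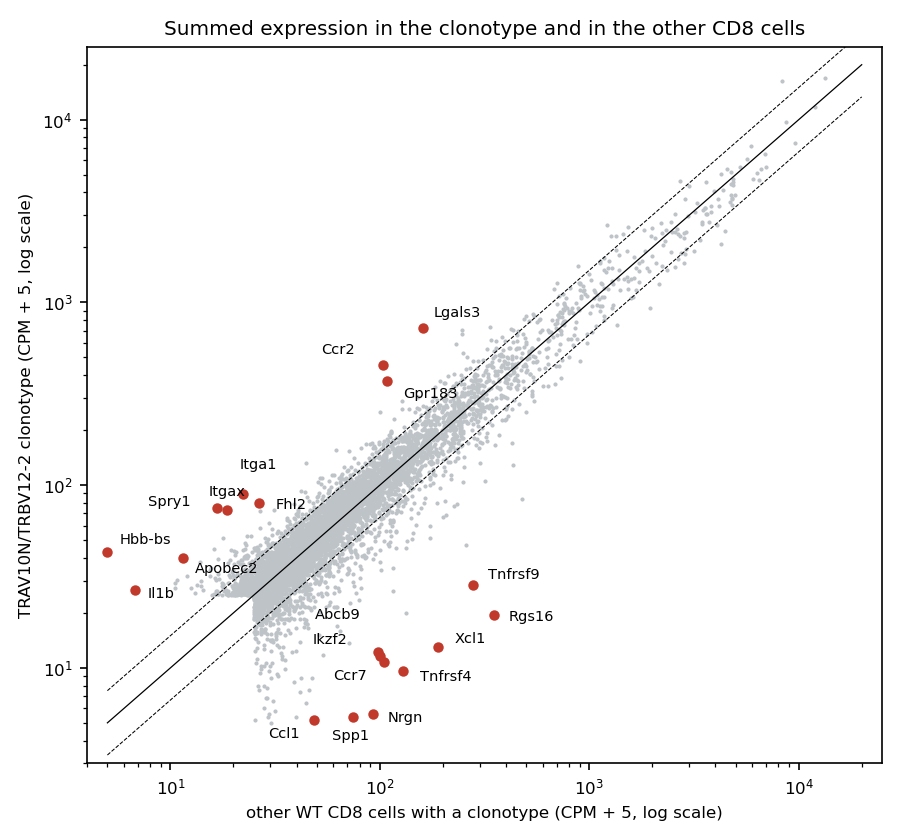
Summed expression (CPM + 5, log scales) of each of the 6215 genes tested in the clonotype (vertical) and in the other WT CD8 cells (horizontal), with the solid line at equality and dashed lines at 1.5-fold. The 10 highest and the 10 lowest genes are marked, from Lgals3 at 724 against 156 CPM above the lines to Rgs16 at 14.4 against 345 CPM below them.

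Among chemokine receptors, Ccr2 stood highest. Ccr2, which binds CCL2 and draws cells to inflamed tissue, was at 451 CPM in the clonotype (432 to 470) and 99.0 CPM in the others, 4.55-fold higher (4.28 to 4.84). Cxcr3, the receptor for CXCL9 and CXCL10, was at 587 and 225 CPM. The lymph node homing receptor Ccr7 went the other way, at 5.80 CPM against 99.2, 17.1-fold lower (11.9 to 25.6). The fold of Ccr7 depended on the reference. Its level was 260 CPM in clonotypes of 1 cell and 33.1 CPM in other clonotypes with at least 20 cells. Of 14 chemokine receptors and related genes on the list, 10 passed the 20 CPM filter, and 5 of these were higher (among them Ccr2, Cxcr3, S1pr5 and Cxcr4) and 2 lower (Ccr7 and Ccr8), with a median log2 ratio of 0.53. Ccr7 and Ccr8 passed the filter only through the other cells and could not come out higher. S1pr5 passed only through the clonotype and could not come out lower. Cxcr6, the most abundant gene of the list, was at 772 and 557 CPM and within 1.5-fold. The list had 3 genes higher in place of 5 without dividing cells, with every cell weighted equally, with cells thinned to 2000 UMIs and without cells holding at least 3 myeloid UMIs.

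Integrin genes were called in both directions. Itga1, the alpha subunit of the collagen receptor VLA-1, was at 84.3 CPM against 17.3, 4.87-fold higher (4.21 to 5.63). Itgax, which encodes CD11c, a marker of dendritic cells that activated T cells can also carry, was at 69.8 CPM in 254 members against 11.7 CPM. Itga4 and Itgb7, which pair into a gut-homing integrin, were at 525 against 243 CPM and 359 against 199 CPM, and Itgb1 was at 640 against 376 CPM. On the other side stood Itgae, which encodes CD103, at 4.8 against 22 CPM. Of 15 genes of integrins and residency, 14 were tested, 6 were higher and 4 lower, with a median log2 ratio of 0.53. With every cell weighted equally 3 were higher and 4 lower.

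The remaining leading genes came from varied families. Lgals3, which encodes the glycan-binding protein galectin-3, was at 724 CPM against 156, 4.64-fold higher (4.42 to 4.86), with UMIs in 835 members. Gpr183, a receptor for oxysterols that guides lymphocyte positioning, was at 366 against 103 CPM, 3.56-fold higher (3.34 to 3.79). Spry1, a feedback inhibitor of receptor kinase signals, was at 67.6 against 13.6 CPM. Apobec2, of the cytidine deaminase family, was at 34.8 against 6.47 CPM, and Fhl2, a LIM-domain adaptor, at 74.9 against 21.4 CPM. In contrast to these, 2 of the 10 rested on few cells. Hbb-bs, a beta-globin gene, was at 37.8 CPM and at 0 UMIs in the others, but all its UMIs lay in 1 member, which held 347 haemoglobin UMIs among its 5194. Il1b UMIs lay in 4 members, 73.4% of them in 1, and without that cell Il1b was at 5.82 CPM against 1.80.

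The lowest ratios were those of receptors, chemokines and regulators of varied families. Rgs16, a regulator of G protein signals, was at 14.4 CPM in the clonotype (11.3 to 18.1) and 345 CPM in the others, 23.9-fold lower (19.0 to 30.6). The fold of Rgs16 depended on the reference. Its level was 70.5 CPM in clonotypes of 1 cell and 513 CPM in other clonotypes with at least 20 cells. Tnfrsf9, which encodes the costimulatory receptor 4-1BB, was at 23.4 against 275 CPM, 11.7-fold lower (9.76 to 14.2), and Tnfrsf4, which encodes OX40, at 4.60 against 124 CPM. Tnfrsf4 was at 234 CPM in clonotypes of 1 cell and 79.9 CPM in other clonotypes with at least 20 cells. Tnfrsf4, Ikzf2 and Ctla4 are also on the list of CD4 and regulatory T cell markers, which summed to 84.7 against 464 CPM. The chemokine Xcl1, which attracts cross-presenting dendritic cells, was at 8.01 against 184 CPM. Ikzf2, which encodes the transcription factor Helios, was at 6.60 against 94.9 CPM and the peptide transporter Abcb9 at 7.20 against 92.8 CPM. Counts at the bottom were small. Nrgn had 3 UMIs in the clonotype (88.1 CPM in the others), Spp1, which encodes osteopontin, had 2 (69.6 CPM) and Ccl1, a chemokine for CCR8, had 1 (43.3 CPM), so that the fold of Ccl1 had an interval of 38.7 to 8559.

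Most inhibitory receptors of the list were lower, with Vsir the only one tested on the other side. Klrc1, which encodes an inhibitory receptor on the NK list, was higher, at 699 against 241 CPM. Of 13 genes on the list, 12 were tested, 10 were lower and none was called higher, with a median log2 ratio of -1.10. Lag3 was at 42.2 against 252 CPM, 5.97-fold lower (5.20 to 6.89), Havcr2, which encodes TIM-3, at 8.61 against 66.1 CPM, 7.68-fold lower (5.67 to 10.7), and Ctla4 at 61.8 against 194 CPM, 3.14-fold lower (2.80 to 3.54). The fold of Havcr2 depended on the reference. Its level was 14.9 CPM in clonotypes of 1 cell and 96.1 CPM in other clonotypes with at least 20 cells. Pdcd1, which encodes PD-1, was closer, at 383 against 533 CPM, and within 1.5-fold. Vsir, which encodes VISTA, was at 155 CPM (145 to 167) in 531 members against 102 CPM, a ratio of 1.52 (1.39 to 1.65) that with 5 CPM added lay just under 1.5-fold. In the library labelled VISTA-KO, Vsir was at 128 CPM in the largest CD8 clonotype and 108 CPM in the other CD8 cells with a clonotype, so its level was not lower there than the 102 CPM of the other WT cells. The counts do not show which exons were read, and whether they include the floxed part was not tested, so these levels do not check the deletion.

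Of the exhaustion and effector transcription factors, those called were lower but for Id2. Tox was at 73.4 against 229 CPM, 3.11-fold lower (2.80 to 3.47), and Eomes at 59.2 against 111 CPM. Id2, which favours effector CD8 cells, was at 833 against 495 CPM and the one gene of the list called higher, while Ikzf2 was its lowest. Of 18 genes 16 were tested, 1 was higher and 6 were lower, with a median log2 ratio of -0.16. Among costimulatory receptors 3 of 10 were higher (Icos, Cd226 and Slamf7) and 3 lower (Tnfrsf4, Tnfrsf9 and Tnfrsf18). Icos, of the CD28 family, was at 255 against 123 CPM, and Tnfrsf18, which encodes GITR, at 76.9 against 201 CPM. The median log2 ratio of the list was 0.03.

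Genes of the cytotoxic granule were level or higher. Gzma was at 667 against 242 CPM, 2.76-fold higher (2.64 to 2.88), yet its UMIs lay in only 314 members. Gzmk was at 701 against 427 CPM in 848 members, and Fasl, the death ligand, at 299 against 177 CPM. Gzmb was at 985 against 753 CPM, and Prf1, the pore-forming perforin, at 164 against 212 CPM, both within 1.5-fold. Of 17 genes 11 were tested, 4 were higher (Gzma, Fasl, Gzmk and Ctsw) and none lower, with a median log2 ratio of 0.55. With every cell weighted equally 2 were higher. Klrc1, which encodes the inhibitory receptor NKG2A, was at 699 against 241 CPM in 911 members and was the only one of 7 NK receptor and marker genes tested that was higher, while Cd244a, Klre1 and Eomes were lower (median log2 ratio -0.35, 16 genes on the list).

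Secreted factors divided within the chemokines. Ccl5 was at 16183 CPM in the clonotype and 8291 in the others, and Cxcl10 at 68.4 against 26.1 CPM in 42 members. Of the Cxcl10 UMIs 39.8% lay in 1 member, and without it the level was 41.3 CPM and no longer past 1.5-fold (1.49 with 5 CPM added), a check chosen after the values were seen. Ccl3 and Ccl4, which attract effector lymphocytes and myeloid cells, were at 78.9 against 473 CPM and 743 against 1344 CPM. Of 8 chemokines 6 were tested, 2 were higher and 4 lower, with a median log2 ratio of -1.68. Ifng was at 166 against 230 CPM and within 1.5-fold. Of 14 cytokines 8 were tested, none was higher and 3 were lower (Spp1, Penk and Csf1, with a median log2 ratio of -0.38). These 3 genes lay below 20 CPM in the clonotype and passed the filter only through the other cells. They could not come out higher, so the count of lower cytokines and the median are a description. The same holds for Xcl1 and Ccl1 among the lower chemokines.

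**Figure D3:**
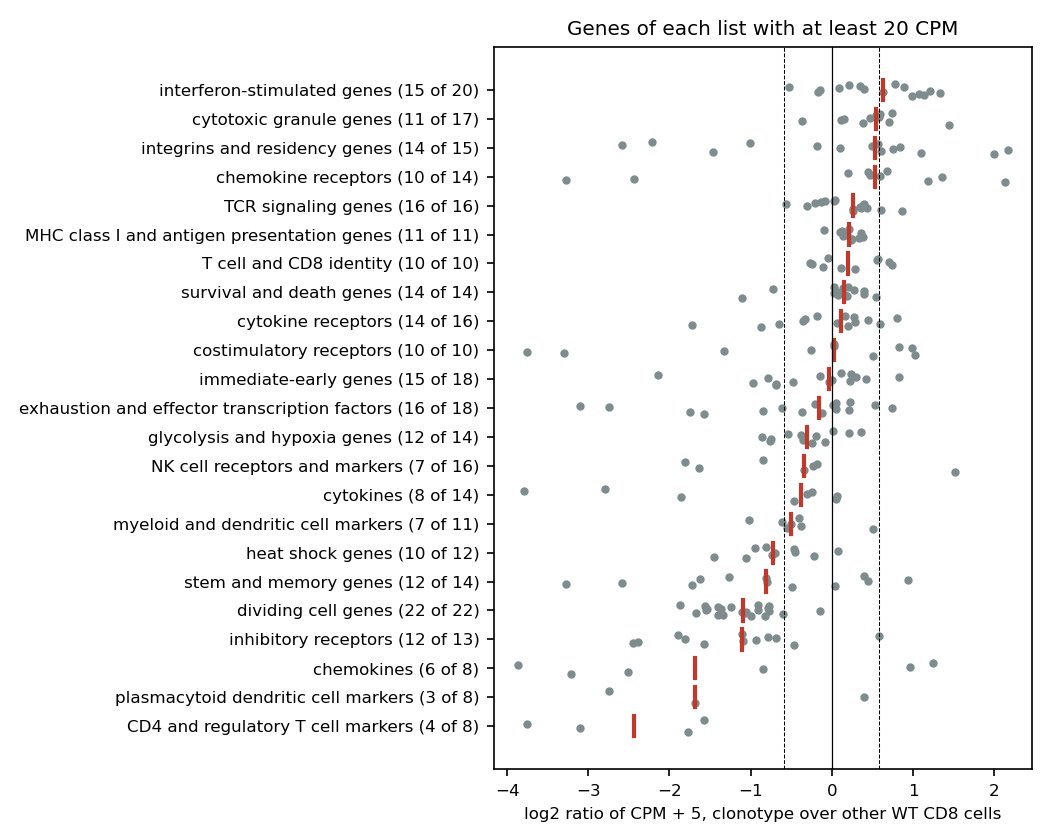
Log2 ratio of CPM + 5 in the clonotype over the other WT CD8 cells for each tested gene (points) of the lists with at least 3 genes tested, with the number tested of all genes on each list; bars mark list medians, dashed lines 1.5-fold. Medians run from 0.64 for interferon-stimulated genes to -2.44 for markers of CD4 and regulatory T cells.

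What the clonotype was compared with mattered for several of these genes. The other cells hold clones of every size, so the clonotype was also set beside the 894 cells that were the only cell of their clonotype, the 1107 cells of clonotypes with 2 to 19 cells and the 1124 cells of other clonotypes with at least 20 cells. Tcf7, which encodes TCF1, was at 100 CPM in the clonotype and 334, 104 and 54.0 CPM in those sets, in that order. The interleukin-7 receptor gene Il7r was at 30 CPM and 301, 65.6 and 25.5 CPM. Both memory genes were below cells seen once. Tcf7 was near the level of clonotypes with 2 to 19 cells and above that of the larger ones, while Il7r was near the larger ones and below those with 2 to 19 cells. Against clonotypes of 1 cell, where 6.82% of genes were higher and 6.77% lower, 10 of 12 stem and memory genes were lower and none higher. Against other clonotypes with at least 20 cells, where 8.11% were higher and 9.88% lower, 1 of 9 was lower and 5 were higher. Against all other cells 7 of 12 tested (of 14) were lower, from Ccr7 down, 1 was higher (Slamf6, 80.9 against 39.8 CPM), and the median log2 ratio was -0.81.

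Inhibitory and effector genes differed between these references in another way. Pdcd1 was at 383 CPM in the clonotype and 190, 569 and 725 CPM in the same sets. Lag3 was at 42.2 CPM and 76.1, 260 and 361 CPM, and Tox at 73.4 CPM and 86.6, 250 and 302 CPM. For Lag3 and Tox the clonotype thus resembled, in level, cells seen once more than other expanded cells. Gzmb was at 985 CPM and 379, 848 and 914 CPM, on the side of expanded cells. Of the inhibitory receptors 11 of 12 tested were lower and 1 was higher against other clonotypes with at least 20 cells, and 4 of 9 were lower and 1 higher against clonotypes of 1 cell. Of the cytotoxic genes 8 of 11 were higher and none lower against clonotypes of 1 cell, and 4 of 11 were higher and 1 lower against the large clonotypes. Chemokine receptors were called higher in 6 of 10 against the first and 5 of 9 against the second of these references, and lower in 3 and 1.

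Transcripts of dividing cells were lower. All 22 genes of that list were tested, 21 were lower and none higher, with a median log2 ratio of -1.09. Mki67 was at 50.8 against 106 CPM, 2.09-fold lower (1.84 to 2.39), and the list ran from Tk1 at 12.0 against 57.4 CPM to Hmgb2 at 773 against 858 CPM, the one within 1.5-fold. With every cell weighted equally 12 were lower, and without cells holding at least 3 myeloid UMIs 5 were. Of all genes tested, 279 of 6190 and 265 of 6085 were lower in these settings. Genes of the list can fall below the 20 CPM filter there, so the 12 and 5 are not shares of 22. With each cell thinned to 2000 UMIs (987 members kept and 47 left out, 3003 other cells kept and 122 left out), 123 members (12.5%, 10.5 to 14.7) and 580 other cells (19.3%, 17.9 to 20.8) held at least 5 UMIs of the list. This share is a range of a sum and not a cell type, since 47 members lay at the limit and 120 had 1 UMI less. At a limit of 3 UMIs the shares were 44.3% and 44.7%, and at a limit of 10 UMIs 2.33% and 8.89%. With the abundant genes Hmgb2 and Tubb5 left off the list, a choice made after these values were seen, they were 2.43% and 9.52% at 5 UMIs. In the 22 other large clonotypes the share at 5 UMIs ran from 7.25% to 72.1% with a median of 20.1%, and 16 of them lay above the clonotype and 6 below. Against clonotypes of 1 cell 1 of 15 genes was higher and 4 were lower, with Mki67 at 50.8 CPM against 44.7.

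Heat shock and interferon genes gave opposite counts in the summed cells. Of 20 interferon-stimulated genes 15 were tested, 8 were higher and none lower, with a median log2 ratio of 0.64. Ifit3, an interferon-induced antiviral gene, was at 150 against 56.6 CPM, Isg15 at 226 against 112 CPM and Ly6a, the lowest of the list, at 577 against 834 CPM. Ifit3 UMIs lay in 228 members. Per cell the list was not higher in members. At 2000 UMIs per cell they held a median of 3 UMIs of the list (mean 6.48) and the other cells 4 (mean 6.60), and with every cell weighted equally 5 genes were higher and 2 lower. Without dividing cells 6 were higher and 2 lower. The summed level of 3249 CPM was exceeded by 9 of the 22 other WT CD8 clonotypes with at least 20 cells. Of 12 heat shock genes 10 were tested, 6 were lower and none higher (median log2 ratio -0.72), led by the chaperone Hspa1b at 44.2 against 130 CPM, with Dnaja1 highest at 321 against 305 CPM. Among immediate-early genes 15 of 18 were tested, 1 was higher and 5 were lower (median log2 ratio -0.03). Dusp2, a phosphatase induced on activation, was at 1572 against 882 CPM, while the growth regulator Myc was at 21.2 against 111 CPM. Both are known targets of T cell activation, and here they differed in direction.

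Signaling, antigen presentation and survival lists lay close to the median of all genes. Of 16 TCR signaling genes all were tested, 2 were higher (among them the adaptor Lat at 1271 against 697 CPM) and none lower, with a median log2 ratio of 0.26, and the ligase gene Cblb was lowest at 135 against 202 CPM. None of 11 genes of MHC class I and antigen presentation was called, with a median log2 ratio of 0.21. Of 14 survival and death genes 2 were lower, among them Bcl2, an inhibitor of apoptosis, at 50.4 against 114 CPM, and none was higher (median log2 ratio 0.15). Of 16 cytokine receptors 14 were tested, 2 were higher and 3 lower (median log2 ratio 0.11), from Ifngr1, a chain of the interferon-gamma receptor, at 1183 against 675 CPM to Il7r. Of 14 genes of glycolysis and hypoxia 12 were tested, none was higher and 3 were lower (median log2 ratio -0.30), with Pgam1 at 164 against 302 CPM.

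Identity genes and markers of other cells were read for the whole lists. Of 10 T cell and CD8 identity genes 2 were higher and none lower, with a median log2 ratio of 0.20. Cd8b1 was at 2349 against 1437 CPM and Cd8a at 947 against 1139 CPM, which the rule used and which are given as a description. Cd247, the zeta chain of the receptor complex, was at 428 against 253 CPM. Of 8 markers of CD4 and regulatory T cells 4 were tested and all 4 were lower (Tnfrsf4, Ikzf2, Foxp3 and Ctla4, with a median log2 ratio of -2.44), with Cd4 at 0 by the rule and a summed level of 84.7 CPM against 464. Tnfrsf4, Ikzf2 and Foxp3, at 4.60, 6.60 and 3.80 CPM in the clonotype, passed the 20 CPM filter only through the other cells. They could not come out higher, so this count and median are a description. Xist was at 277 against 276 CPM and 4 genes of the Y chromosome had no UMI in the clonotype.

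Markers of myeloid cells were level or lower in the clonotype than in the sum of the other cells, but not than in most large clonotypes. Of 11 myeloid and dendritic markers 7 were tested, none was higher and 2 were lower (Fcer1g and Cd74; median log2 ratio -0.50), with a summed level of 705 CPM against 1012, Cd74 the most abundant at 256 against 395 CPM, and no marker at 0. The summed level lay above 18 of the 22 other WT CD8 clonotypes with at least 20 cells (median 334 CPM, highest 3441 CPM) and below 4. Against clonotypes with 2 to 19 cells 3 of 7 genes were higher and 1 lower, with a median log2 ratio of 0.28. At least 3 UMIs of the list lay in 58 of the 1034 members and 654 of the 3125 other cells. The summed level of the members rested on few cells in part. Cd74 UMIs lay in 51 members, 30.3% of them in 1. Of the Lyz2 UMIs 72.8% lay in 1 member, and without it Lyz2 was at 18.3 CPM against 45.8. Among the 576 members without any such UMI, Ccr2 was at 454 CPM, Itgax at 67.2 CPM and Lgals3 at 660 CPM, against 136, 19.8 and 162 CPM in the 1322 other cells without one. Il1b had no UMI in either of these subsets, so its level came from cells with myeloid UMIs.

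Markers of B cells were higher in part. Cd79b, the signaling partner of the B cell receptor, was at 24.0 against 5.46 CPM with UMIs in 105 members, and Ighm at 154 against 89.3 CPM in 470 members. These were the 2 genes tested of 7 (median log2 ratio 1.11), and Cd79a, Ms4a1 and Iglc2 were among those with no UMI in the clonotype. Cd79b lay below 20 CPM in the other cells and passed the filter only through the clonotype. It could not come out lower, so the count of higher genes and the median are a description. The list summed to 178 CPM against 95.3, with Ighm the most abundant. Of 8 markers of plasmacytoid dendritic cells 3 were tested, 2 were lower (Irf8 and Pacsin1) and none higher (median log2 ratio -1.69). Irf8 and Pacsin1 lay below 20 CPM in the clonotype and passed the filter only through the other cells. These 2 genes could not come out higher, so the count of lower genes and the median are a description. Bst2 was the most abundant marker at 268 against 202 CPM, Siglech was at 0, and the list summed to 291 CPM against 394. No melanocyte or melanoma marker of 7 and no marker of gamma-delta, MAIT or NKT cells of 8 reached 20 CPM, with sums of 1.60 against 8.77 CPM and 6.80 against 37.1 CPM. Doublets were not called, and their part in these values was not tested.

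The spread between clones was read from the 22 other WT CD8 clonotypes with at least 20 cells. Over all genes tested, the clonotype lay above every one of them in 40 genes (0.644%) and below every one in 19 (0.306%). Of the 10 highest genes, 7 lay above all 22, namely Hbb-bs, Lgals3, Ccr2, Il1b, Apobec2, Gpr183 and Fhl2, and all 10 above their median. Of these 7, Hbb-bs and Il1b rested on 1 cell each, and without that cell, at 0 and 5.82 CPM, neither lay above the others (up to 0 and 9.05 CPM). Lgals3 ran from 68.1 to 484 CPM in the others, with a median of 203, so that its 724 CPM lay clear of the range. Ccr2 ran from 0 to 413 CPM with a median of 121, and Gpr183 from 5.88 to 327 CPM with a median of 96.0, both close below the clonotype at their upper ends. Itgax was exceeded by 4 clonotypes, Itga1 by 2 and Spry1 by 1. Among list genes Cd79b was also above all 22, while Cxcr3 and Klrc1 were exceeded by 1 clonotype each. The chemokine receptor list summed to 2289 CPM, above all 22 (693 to 2146), and the integrin list to 4249 CPM, below 1 of them. The list of B cell markers also lay above all 22, at 178 CPM against up to 175. These clonotypes hold few cells, and with clonotypes of at least 10 cells as the reference only 2 of the 10 genes lay above all.

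For the low genes a position below all 22 was mostly out of reach, because 9 of the 10 had no UMI in at least 1 of these small clonotypes. Abcb9, the other one (16.5 to 298 CPM), lay below all 22, and 9 of the 10 lay below their median. Rgs16 was lower still in 5 clonotypes, Xcl1 in 5, Tnfrsf9 in 4 and Ccr7 in 8. With clonotypes of at least 10 cells none lay below all, and with those of at least 50 cells 5 did. Among list genes Cd8a (1033 to 1664 CPM in the others), Eomes (61.9 to 239 CPM) and Tnfrsf18 (80.7 to 329 CPM) were below all 22. Pdcd1 ran from 11.6 to 1263 CPM with a median of 744, and 7 clonotypes lay below the clonotype. Lag3 ran from 5.82 to 727 CPM, with 6 below, and Gzma from 0 to 1955 CPM with a median of 57.5, with 8 above. Vsir ran from 45.4 to 190 CPM and 4 clonotypes exceeded the 155 CPM of the clonotype.

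**Figure D4:**
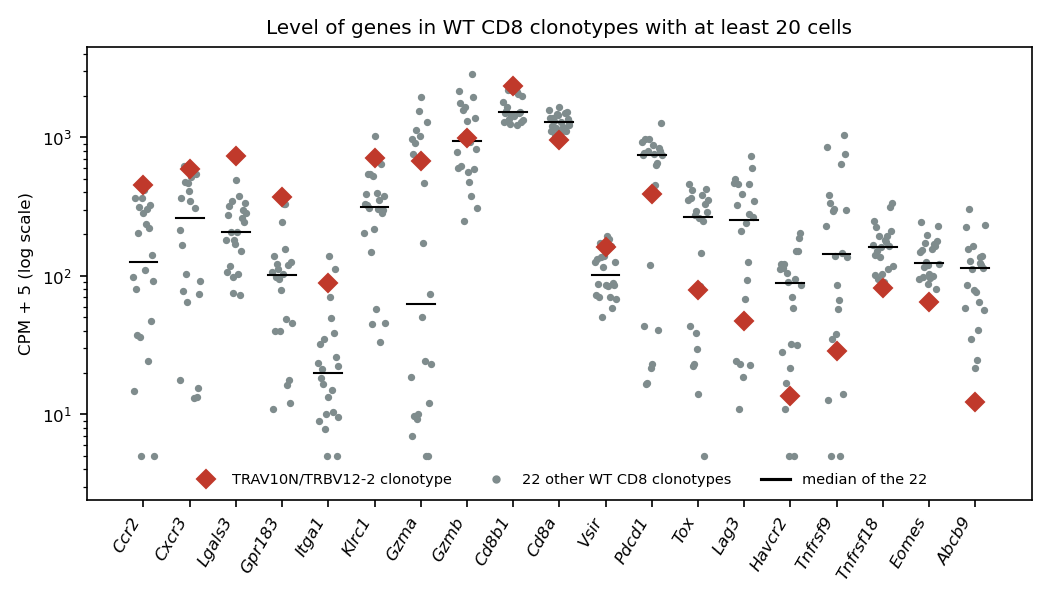
Level of 19 genes (CPM + 5, log scale) in the clonotype (diamonds) and in each of the 22 other WT CD8 clonotypes with at least 20 cells (points), with bars at the median of the 22. The diamond lies above all points for Ccr2, Lgals3 and Gpr183, inside their range for Gzma, Gzmb, Vsir, Pdcd1, Tox and Lag3, and below all points for Cd8a, Tnfrsf18, Eomes and Abcb9.

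Shares of cells with a UMI showed how evenly these genes were spread over the members. At 2000 UMIs per cell, Ccl5 was seen in 99.6% of members, Klrc1 in 69.2% (66.2 to 72.1), Gzmk in 64.4%, Lgals3 in 64.3%, Cxcr3 in 61.1% and Ccr2 in 56.6% (53.5 to 59.8). In the other cells the shares were 90.1%, 30.7%, 48.5%, 21.8%, 39.2% and 17.1%. Unthinned, Klrc1 was in 88.1% of members and 45.6% of the others, and Ccr2 in 78.5% and 28.5%. Gzma was seen in 22.9% of members (20.3 to 25.6) against 10.4%, and Pdcd1 in 41.4% against 40.3%. Unthinned, Pdcd1 was in 61.6% of members and 53.4% of the others, while its level, as given above, was within 1.5-fold. Lag3 was seen in 7.40% against 25.6% and Rgs16 in 2.53% against 22.9%.

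Free RNA was gauged in 29 cells with at least 2 Siglech UMIs and no UMI of Cd3d, Cd3e, Cd3g, Cd8a or Cd8b1, whose median depth was 7356 UMIs. At 2000 UMIs none of them held Klrc1, Gzmk, Gzma or Pdcd1, and for 29 cells a count of 0 allows up to 11.9%. Ccl5 was in 13.8% of them and Lgals3 in 17.2%, below the members in both. Ccr2 (27.6%), Cxcr3 (13.8%), Itgax (20.7%) and Lag3 (34.5%) are genes that plasmacytoid dendritic cells themselves can express, so these shares set no background, and the Lag3 share of the members lay below theirs.

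**Figure D5:**
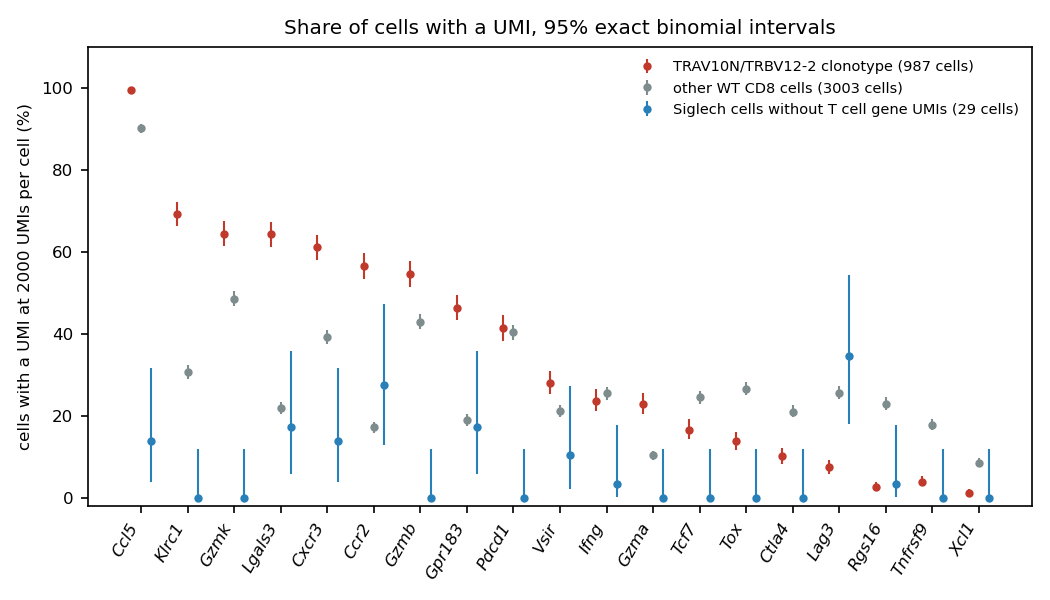
Percent of cells with at least 1 UMI of each gene after thinning to 2000 UMIs per cell, in 987 members, 3003 other WT CD8 cells and 29 Siglech cells without T cell UMIs, with 95% exact binomial intervals that cover counting error only. Members exceed the other cells for Klrc1 (69.2 against 30.7%) and Ccr2 (56.6 against 17.1%), match them for Pdcd1, and lie below them for Tox, Lag3 and Rgs16.

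The members differed among themselves in a few genes. Of 5085 genes with a mean of at least 0.05 UMIs per thinned cell, 148 had a variance of at least 1.5 times the mean in the clonotype and 242 in the other cells, and 60.8% had a lower ratio in the clonotype. The 5 largest ratios of variance to mean were those of Hbb-bs (69.0, from 1 cell), Gm42418 (41.5, with 42.6 in the other cells), Cd74 (35.8, seen in 23 members), Cxcl10 (23.5, seen in 27 members, with 4.86 in the other cells) and Ccl5 (18.9, with 28.2 in the other cells). Gm42418 overlaps ribosomal RNA sequence, and Cd74 encodes the invariant chain of MHC class II. The next was Gzma at 14.1, which set a subset of members with UMIs beside a majority without.

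Cells that missed a chain gave a separate look at the same genes. The expression contrast did not use 42 WT cells that carried 1 of the 2 junctions and no other contig, 12 with the alpha and 30 with the beta junction, of which 38 met the CD8 rule. They held 116588 UMIs in all, so single values rest on few counts. For 8 of the 10 highest genes their level lay nearer to the clonotype than to the other cells, with Ccr2 at 472 CPM, Lgals3 at 523 CPM and Gpr183 at 515 CPM. Hbb-bs and Il1b had no UMI. All 10 lowest genes lay nearer to the clonotype, with Rgs16 at 34.3 CPM and Tnfrsf9 at 25.7 CPM. They share the library and the receptor with the members and are no replicate.

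The clonotype was set beside the 2 clonotypes nearest in size. All 10 highest genes were higher in it than in the second WT clonotype and all 10 lowest genes lower. These genes were chosen against other cells that include the second WT clonotype, so the counts are a description. Ccr2 was at 451 CPM against 93.5 in the second WT clonotype and 218 in the largest VISTA-KO clonotype, and Gzma at 667 CPM against 13.6 and 37.5 CPM. Pdcd1 was at 383 CPM against 921 and 554 CPM, and Lag3 at 42.2 CPM against 466 and 215 CPM. Lag3 was thus lower in the clonotype than in both, and Gzma was higher, as was Klrc1, at 699 CPM against 198 and 123 CPM. Vsir was at 155 CPM against 120 and 128 CPM. Gzmb was at 985 CPM against 773 and 3078 CPM. Against the VISTA-KO clonotype 9 of the 10 highest genes were higher, all but Il1b (21.8 against 28.7 CPM), and 9 of the 10 lowest were lower, all but Ccr7 (5.80 against 5.30 CPM), although Ccl1 rested on 1 UMI in each (0.2 against 0.441 CPM). The intervals overlapped for Ccl1 and Spp1 among the lower genes, and for the exceptions Il1b and Ccr7 as well. For the VISTA-KO clonotype, clone, mouse, library and genotype cannot be told apart.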

How the data were processed

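The authors aligned expression and receptor reads with Cell Ranger 5.0.0, as the matrix header gives it, to mouse GRCm38. They deposited whole, unscaled UMI counts for every gene in every barcode, and counts of UMIs for each productive receptor contig. The labels and the methods name different kits, a 3′ one and a 5′ one; contigs require the latter. As in the methods, a cell needed 600 detected genes and a mitochondrial share below 30%. Counts were summed over cells and given as CPM; log2 ratios used CPM + 5, with exact 95% Poisson and Clopper-Pearson intervals that cover counting error only. PCR duplicates were collapsed by UMI. No doublet caller was run. The genes in the text were the 10 highest and 10 lowest log2 ratios, the extremes of 27 gene lists with 347 genes, 11 checkpoint and effector genes named singly, and the 5 most variable genes; a few other members of the lists were named after their values were seen. The clonotype and the lists were chosen with earlier results of these data known. Gene positions came from RefSeq tables of GRCm38.p6. Scripts were tested on simulated counts. Python 3.11.15, numpy 2.4.6, scipy 1.17.1, pandas 2.3.3 and matplotlib 3.10.9 were used. Some genes of the lists are counted but not reported here by name.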

Additional observations from a re-analysis of the deposited data

Results flagged for a closer look

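A signal appeared in data that the comparisons above did not use in 4 cases. In the expression library, Trbv31 was at 377 CPM in the clonotype (799 members with a UMI) and 42.1 CPM in the other WT CD8 cells (138 cells with a UMI), although no member had a TRBV31 contig. In the same way, Trav14-1 was at 145 CPM (480 members) against 12.0 CPM (106 other cells), with no TRAV14-1 contig in any member. Both genes were set apart from the genes tested as receptor segments, and the source of their UMIs was not tested.

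The alpha CDR3 residues of the clonotype were also found in the VISTA-KO library, in 64 of 7791 cells with an alpha contig (0.821%), while its beta junction was in none. Of these cells, 63 used TRAV7D-2 with TRAJ9 and paired it with TRBV13-1, and 1 used TRAV14N-3 with the very bases of the WT junction. The junction of the 63 cells is shown because it encodes the same residues with the substitution A9C against the junction of the clonotype, counted from 1 at the 5′ end, with the changed base in capitals.
VISTA-KO alpha, TRAV7D-2 with TRAJ9: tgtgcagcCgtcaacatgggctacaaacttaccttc
None of the 64 cells met the CD8 rule and 57 held a Cd4 UMI.

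A total of 29 cells with both junctions failed the CD8 rule, 27 for a Cd4 UMI and 2 for lack of a Cd8a or Cd8b1 UMI. A further 4 WT cells carried the beta junction beside another alpha and another beta chain, the same set in each.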

How the results depend on the processing

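The share of 24.9% became 15.1% when every filtered cell with a clonotype was the base. Against 332 higher and 515 lower genes, counts were 172 and 319 with 20 CPM added, 215 and 264 among genes with at least 50 CPM, 55 and 184 past 2-fold, 199 and 292 without dividing cells, 157 and 279 with every cell weighted equally, 196 and 339 with cells thinned to 2000 UMIs, and 170 and 265 without cells holding at least 3 myeloid UMIs, a setting chosen after seeing the data. The higher count was 506 (lower 616) against other clonotypes with at least 20 cells only and 206 (lower 399) when those clonotypes weighed equally. The 10 lowest genes stayed past 1.5-fold in all settings. The 10 highest did so in all but those without the haemoglobin cell and without cells holding at least 3 myeloid UMIs, with 9 in each. The log2 ratio changed sign for Tcf7 (0.83 against large clonotypes, 0.00955 when they weighed equally), Gzmb (-0.14 when they weighed equally), Pdcd1 (1.00), Ifng (0.31), Prf1 (1.01) and Mki67 (0.17) against clonotypes of 1 cell, Prf1 (0.00557) with every cell weighted equally, and Il1b (-0.0231) without cells holding at least 3 myeloid UMIs. Of the other results for single genes, 426 moved by less than counting error and 154 by more, in the same direction. Any of the 426 under settings that changed only the CPM limit or the fold threshold were fixed beforehand, since these leave a log2 ratio unchanged. The difference of 6.85 percentage points in dividing cells was 0.38 at a limit of 3 UMIs, 6.56 at 10 UMIs, 7.09 without Hmgb2 and Tubb5, and 10.3 against other clonotypes with at least 20 cells. Without dividing cells 3 chemokine receptors were higher in place of 5. With clonotypes of at least 10 cells, 2 of the highest genes lay above all and 0 of the lowest below all; with at least 50 cells, 9 and 5 did. The causes of these changes were not tested. No paired analysis was possible because each genotype had 1 library and the labels pair no samples. Depth limits single genes near 20 CPM in clonotypes of 20 cells, where 1 UMI can set the rank.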
